A study of Mus musculus with 18 samples.

Results

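The genes described here are the 3 MEF2 transcription factor genes *Mef2a*, *Mef2c* and *Mef2d*, the 4 class IIa histone deacetylase genes *Hdac4*, *Hdac5*, *Hdac7* and *Hdac9*, and the muscle methyltransferase gene *Smyd1*. They were chosen by name as members of one regulatory axis, with earlier results of these data known, and matched to the files by Ensembl identifier. All 8 were found among the 19153 genes listed, and all 8 were among the 17672 genes tested. They were measured by RNA-seq in wildtype (WT) and LAP2alpha knockout (KO) immortalized mouse myoblasts, both from a p53 knockout mouse. The KO cells had received Cas9 with an sgRNA against LAP2alpha and the WT cells the Cas9 plasmid without an sgRNA, and each line was a sorted pool of cells and not a clone. Cells of each genotype were taken while proliferating in 20% serum (Prol), at confluence on day 0 (D0) and after 48 h of differentiation in 5% serum on day 2 (D2). With 3 replicate libraries in each of the 6 groups there were 18 libraries.

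MEF2 proteins bind A/T-rich sites in the regulatory regions of muscle genes and act together with the myogenic factors MyoD and myogenin during differentiation. Class IIa HDACs have little deacetylase activity of their own. They bind MEF2 on DNA and recruit corepressors, and when CaM kinases, protein kinase D or related kinases phosphorylate them, 14-3-3 proteins carry them out of the nucleus and MEF2 targets are released. *Smyd1* encodes a muscle-restricted lysine methyltransferase needed for myofibril assembly, and *Hdac9* and *Smyd1* are both known as genes that MEF2 proteins activate in muscle.

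The sequences just before the start sites of the 4 members that rose during differentiation, and of *Hdac5*, are shown with their MEF2 sites and E-boxes. E-boxes are matches to CANNTG, the pattern of the element bound by MyoD and myogenin. Whether any of these sites is bound or acts on its gene was not tested. They are 100-base windows from RefSeq promoters on GRCm38.p6, printed 5′ to 3′ on the strand of the gene, with E-boxes and matches to the MEF2 consensus in capitals. Each window ends at the base before the start site, except that of *Mef2a*, which ends with its match.
Mef2a, chr7:67372851-67372950, minus strand: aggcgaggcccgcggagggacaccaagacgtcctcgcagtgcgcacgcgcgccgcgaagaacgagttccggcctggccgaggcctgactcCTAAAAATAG
Mef2c, first start, chr13:83503934-83504033, plus strand: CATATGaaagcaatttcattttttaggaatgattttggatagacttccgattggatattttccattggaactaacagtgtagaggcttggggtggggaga
Smyd1, chr6:71262282-71262381, minus strand: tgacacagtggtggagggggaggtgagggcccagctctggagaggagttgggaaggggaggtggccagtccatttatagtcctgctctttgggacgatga
Hdac9, first start, chr12:34917096-34917195, minus strand: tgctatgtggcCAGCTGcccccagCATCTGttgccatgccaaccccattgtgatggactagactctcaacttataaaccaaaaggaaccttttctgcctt
Hdac9, second start, chr12:34528890-34528989, minus strand: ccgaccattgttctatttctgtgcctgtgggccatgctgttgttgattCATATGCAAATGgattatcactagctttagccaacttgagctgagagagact
Hdac5, chr11:102230173-102230272, minus strand: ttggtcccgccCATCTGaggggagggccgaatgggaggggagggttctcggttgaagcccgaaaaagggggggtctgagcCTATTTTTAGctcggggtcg

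In the RefSeq table, which gives 14 promoters of 300 bases for the 8 genes, the MEF2 consensus matched 2 promoters, those of *Mef2a* and *Hdac5*, against 3.19% of all 32851 promoters. In *Mef2a* the match began 2 bases before the start site, and in *Hdac5* it lay from 20 to 11 bases before it. An E-box was present in 7 of the 14 promoters, of *Hdac5*, *Hdac7*, *Hdac9* and *Mef2c*, and in 72.3% of all promoters. Both motifs read the same on either strand as patterns, and no E-box overlapped a MEF2 match. The promoter of *Smyd1* and the 3 promoters of *Mef2c* held no match to the MEF2 consensus in these 300 bases. A shorter core of 8 letters, which is TA, then 4 letters that are each A or T, then TA, was in 4 of the 14 promoters and in 9.32% of all, and lies within the MEF2 consensus, so *Mef2a* and *Hdac5* match it too. The other matches were TAATTTTA from 145 to 138 bases before the first start of *Mef2c* and TATTTTTA from 165 to 158 bases before the second start of *Hdac9*, both outside the windows shown.

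The deposited values are CPM, the count of a gene relative to its library total, scaled by the authors between libraries, and the recovered library totals were 26437823 to 41619016 expected counts. At this depth 3 counts correspond to 0.0651 to 0.119 CPM. *Tmpo*, the gene of LAP2alpha and of the other LAP2 isoforms, was at 106 to 315 CPM in WT and 94.5 to 260 CPM in KO libraries, and gene-level values do not separate the isoforms. Of the myoblast markers, *Myf5* was at 20.5 to 27.4 CPM and *Myod1* at 0.736 to 4.61 CPM in proliferating WT cells. *Pax7*, also a myoblast marker, was not among the genes listed. Libraries of replicate 1 stood apart: *Mef2a*, *Mef2c*, *Mef2d*, *Hdac4* and *Hdac5* were highest in replicate 1 in 6 of 6 groups, as were 12.4% of all genes tested. At D2, the summed level of 9 fibroblast markers was 18822 CPM in replicate 1 of WT against 4031 and 5130 CPM in the other two libraries, and 21053 CPM in replicate 1 of KO against 6635 and 7477 CPM. Nothing in the labels says whether libraries of a group came from separate cultures, so p-values measure only the spread between these libraries. Unless stated otherwise, log2 fold changes are from limma on log2 CPM, and a gene was called with a Benjamini-Hochberg adjusted p under 0.05 over all genes tested.

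During differentiation from Prol to D2, *Mef2c*, *Mef2a*, *Hdac9* and *Smyd1* rose in WT and in KO cells, and no member was called lower in the fit of all libraries without a replicate block. The largest fold changes were those of *Smyd1*, followed by *Mef2c* and *Hdac9* and then *Mef2a*, which started from a higher level. The 4 of 8 members called higher compare with 16.6% of all genes called higher in WT and 17.1% in KO cells, and with 14.1% and 15.2% called lower.

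**Figure D1:**
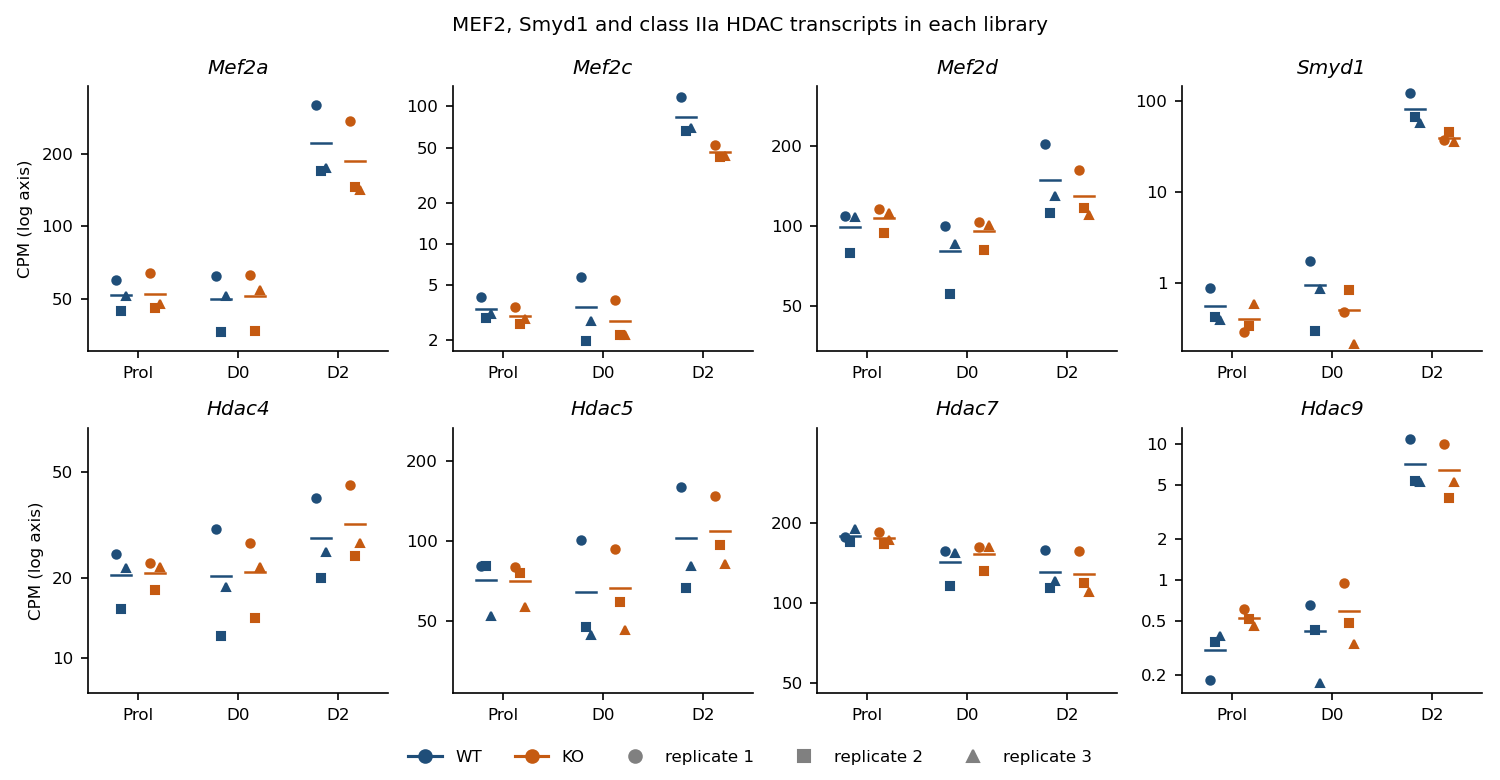
Level of each gene in CPM (log axis) in every library, by state, with WT in blue, KO in orange, symbols for replicate numbers and a bar at the mean of 3 libraries. *Smyd1*, *Mef2c* and *Hdac9* were near the bottom of their range at Prol and D0 and high at D2, while *Hdac7* was a little lower at D2 than at Prol.

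*Mef2c* encodes the MEF2 factor that is tied most closely to muscle and heart development. It lies on chromosome 13 from 83504034 to 83667080 on the plus strand of GRCm38 in the GENCODE M21 annotation. In proliferating WT libraries it was at 4.08, 2.91 and 3.09 CPM and at D2 at 117, 65.8 and 69.9 CPM. In KO libraries it was at 3.49, 2.62 and 2.85 CPM at Prol and at 52.2, 43.1 and 43.9 CPM at D2. The D2 libraries of both genotypes were far above all Prol libraries, and at D2 each KO library lay under each WT library. The log2 fold change from Prol to D2 was 4.62 (SE 0.35, adjusted p = 2.99e-07, limma) in WT, a 24.5-fold change, and 3.96 (SE 0.35, adjusted p = 1.12e-06, limma) in KO cells, a 15.6-fold change.

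*Mef2a* encodes a broadly expressed MEF2 factor and lies on chromosome 7 from 67231163 to 67372858 on the minus strand. It was at 60.0, 44.5 and 51.5 CPM in WT and 64.0, 45.8 and 47.6 CPM in KO libraries at Prol. At D2 it reached 318.0, 170.0 and 174 CPM in WT and 273, 145 and 141 CPM in KO libraries. All D2 libraries were above all Prol libraries, with replicate 1 highest in each group. From Prol to D2 the log2 fold change was 2.03 (SE 0.31, adjusted p = 0.000124, limma) in WT and 1.77 (SE 0.31, adjusted p = 0.000407, limma) in KO cells.

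*Mef2d*, the third MEF2 gene and the one whose muscle isoform appears by alternative splicing, lies on chromosome 3 from 88142372 to 88172086 on the plus strand. It stood at 109, 79.5 and 108 CPM in WT and at 116, 94.6 and 112 CPM in KO libraries at Prol. At D2 it was at 204, 112 and 130 CPM in WT and at 163, 117 and 110 CPM in KO libraries. The WT libraries did not overlap between Prol and D2, by a small margin, and the KO libraries did. The log2 fold change from Prol to D2 was 0.55 (SE 0.26, adjusted p = 0.119, limma) in WT and 0.26 (SE 0.26, adjusted p = 0.494, limma) in KO cells, neither of which passed. Against D0, where it was at 100.5, 55.7 and 85.5 CPM in WT libraries, *Mef2d* rose by D2 with a log2 fold change of 0.88 (SE 0.26, adjusted p = 0.0192, limma). That call rested on single libraries, since without WT D0 replicate 2 the log2 fold change was 0.631 (adjusted p = 0.0969, limma) and without WT D2 replicate 1 it was 0.623 (adjusted p = 0.0865, limma). Splice isoforms of *Mef2d* are summed in gene-level values.

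*Smyd1* lies on chromosome 6 from 71213940 to 71322233 on the minus strand. In WT cells it was at 0.87, 0.42 and 0.39 CPM at Prol, at 1.71, 0.29 and 0.84 CPM at D0 and at 121, 66.2 and 57.6 CPM at D2. In KO cells it was at 0.28, 0.33 and 0.58 CPM at Prol, at 0.47, 0.82 and 0.21 CPM at D0 and at 36.9, 45.7 and 35.6 CPM at D2. The libraries at Prol held 9 to 32 expected counts of this gene, above the 3 counts taken as the floor, so the gene was measured but imprecisely before differentiation. The log2 fold change from Prol to D2 was 7.22 (SE 0.59, adjusted p = 5.05e-07, limma) in WT, a 149-fold change, and 6.69 (SE 0.59, adjusted p = 1.12e-06, limma) in KO cells, a 103-fold change. The deposited values contain an added 0.5 counts, which makes folds of such low genes slightly too small.

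Of the class IIa HDAC genes, *Hdac9* was the one called higher in both genotypes without a replicate block. Its protein occurs in muscle mainly as the MITR form, which binds MEF2 but lacks the catalytic domain. *Hdac9* lies on chromosome 12 from 34047580 to 34917095 on the minus strand. In proliferating cells it was at 0.18, 0.35 and 0.39 CPM in WT and 0.61, 0.52 and 0.46 CPM in KO libraries. At D2 it was at 10.9, 5.35 and 5.25 CPM in WT and at 9.93, 3.98 and 5.28 CPM in KO libraries. The D2 libraries were all above those at Prol. Replicate 1 was highest at D2 in both genotypes, but lowest at Prol in WT. Over this interval its log2 fold change was 4.53 (SE 0.53, adjusted p = 1.11e-05, limma) in WT and 3.50 (SE 0.53, adjusted p = 0.000126, limma) in KO cells.

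*Hdac4* and *Hdac5*, which encode the full-length deacetylases that shuttle between nucleus and cytoplasm in muscle, did not pass the test without a replicate block. *Hdac4* lies on chromosome 1 from 91928779 to 92195699 on the minus strand and was at 24.5, 15.3 and 21.8 CPM in WT and 22.8, 18.03 and 21.99 CPM in KO libraries at Prol. At D2 it was at 40.1, 19.9 and 25.1 CPM in WT and at 44.8, 24.2 and 27.0 CPM in KO libraries. Only the KO groups did not overlap. *Hdac5*, on chromosome 11 from 102194432 to 102230166 on the minus strand, was at 80.6, 80.0 and 52.2 CPM in WT and 79.9, 75.9 and 56.4 CPM in KO libraries at Prol. At D2 it was at 160.0, 66.3 and 80.0 CPM in WT and at 148, 96.3 and 82.1 CPM in KO libraries. Again the KO groups did not overlap, and the WT groups did. The log2 fold changes of *Hdac4* were 0.43 (SE 0.36, adjusted p = 0.402, limma) in WT and 0.57 (SE 0.36, adjusted p = 0.254, limma) in KO cells, and those of *Hdac5* were 0.45 (SE 0.38, adjusted p = 0.417, limma) and 0.59 (SE 0.38, adjusted p = 0.263, limma).

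*Hdac7*, a class IIa HDAC gene known for its roles in endothelium and thymus, was the only member with lower values at D2. It lies on chromosome 15 from 97792664 to 97844502 on the minus strand. It was at 177, 170 and 190 CPM in WT and 186, 167 and 174 CPM in KO libraries at Prol. At D2 it was at 160, 114 and 121 CPM in WT and at 157, 120 and 110 CPM in KO libraries. In both genotypes the 3 D2 libraries were below the 3 Prol libraries. The log2 fold change was -0.46 (SE 0.19, adjusted p = 0.073, limma) in WT and -0.46 (SE 0.19, adjusted p = 0.0696, limma) in KO cells, which did not pass. Without all libraries of replicate 1, it was -0.61 (adjusted p = 0.0243, limma) in WT and -0.57 (adjusted p = 0.0321, limma) in KO cells.

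Libraries of Prol and D2 did not overlap for 6 of 8 members in WT, against 43.5% of all genes, and for 7 of 8 in KO cells, against 47.7%. From D0 to D2 the test called 5 of 8 members higher in WT cells, *Mef2d* besides the 4 above, and 4 of 8 in KO cells, against 14.7% and 15.3% of all genes called higher. In KO cells same-numbered libraries deviated together, and with the replicate number as a block 7 of 8 members were called for D2 against Prol, where 48.6% of all genes were called in either direction. The members added were *Hdac4* (adjusted p = 0.0106, limma), *Hdac5* (adjusted p = 0.0213, limma) and, with lower values, *Hdac7* (adjusted p = 0.0075, limma). For D2 against D0 in KO cells the block also gave 7 of 8, against 46.0% of all genes, with *Mef2d* (adjusted p = 0.0274, limma), *Hdac4* (adjusted p = 0.00782, limma) and *Hdac5* (adjusted p = 0.0067, limma) added. The members' median log2 fold change from Prol to D2 was 1.29 in WT and 1.18 in KO cells, and that of all genes was -0.01 and 0.02.

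**Figure D2:**
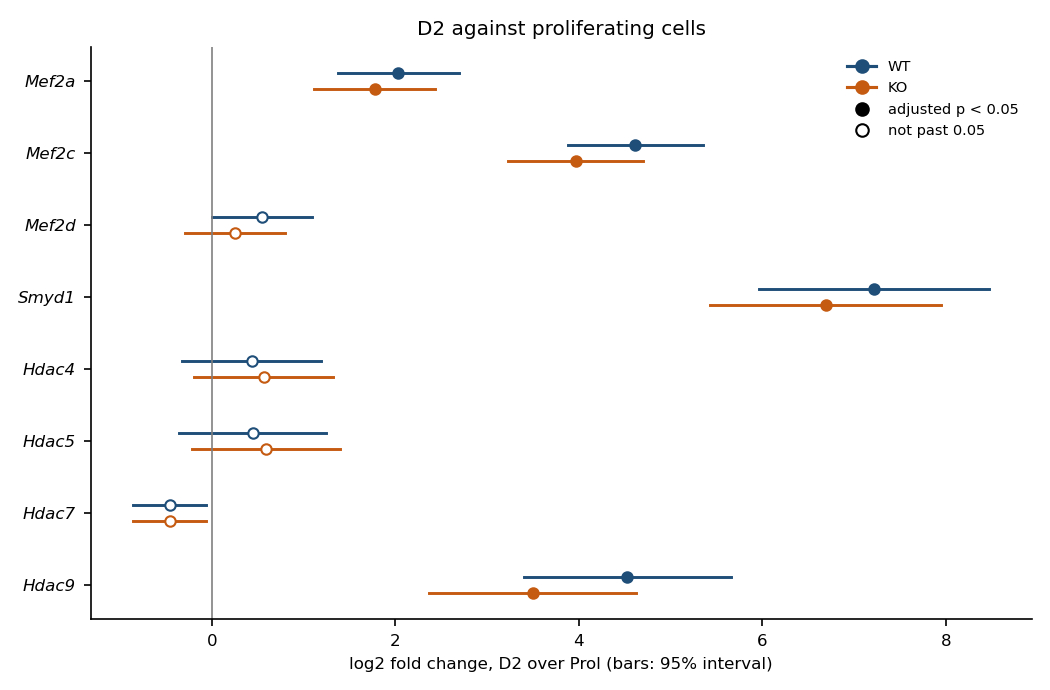
Log2 fold change of D2 over Prol for each gene in WT (blue) and KO cells (orange), with bars for the 95% interval and filled points for an adjusted p under 0.05 (limma). *Smyd1*, *Mef2c*, *Hdac9* and *Mef2a* are filled in both genotypes, and the intervals of WT and KO overlap for every gene.

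Between Prol and D0, when the cells had reached confluence but had not yet been given low serum, no member was called by limma in WT, against 0.00566% of all genes, or in KO cells, against 0% of all genes. None reached an unadjusted p under 0.05 or was called with voom weights. The member nearest to it was *Hdac7*, at 158, 117 and 154 CPM in WT D0 libraries, all below the Prol libraries, with a log2 fold change of -0.34 (SE 0.19, unadjusted p = 0.0861, limma). *Hdac7* was the 1 member without overlap between D0 and Prol in WT, against 5.92% of all genes, and in KO cells, against 4.35%. *Mef2c* at D0, with 5.70, 1.98 and 2.76 CPM in WT and 3.90, 2.16 and 2.18 CPM in KO libraries, spanned its values at Prol.

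Levels of different genes were compared only per length, as CPM per kb of merged exons. In proliferating WT cells *Hdac7* was highest at 26.6 ± 1.5 CPM per kb (SD, n = 3), followed by *Mef2d* at 16.5 ± 2.83, *Hdac5* at 8.08 ± 1.85, *Mef2a* at 3.54 ± 0.53, *Hdac4* at 1.30 ± 0.30, *Mef2c* at 0.214 ± 0.040, *Smyd1* at 0.123 ± 0.060 and *Hdac9* at 0.0210 ± 0.0075. Libraries of neighbours in this order overlapped only for *Mef2c* and *Smyd1*. At D2 in WT cells *Mef2d* was at 24.8 ± 8.19, *Hdac7* at 19.5 ± 3.61, *Smyd1* at 17.95 ± 7.57, *Mef2a* at 15.0 ± 5.75, *Hdac5* at 11.6 ± 5.77, *Mef2c* at 5.37 ± 1.83, *Hdac4* at 1.79 ± 0.66 and *Hdac9* at 0.489 ± 0.221 CPM per kb. The first 5 of these overlapped with their neighbours. In KO cells at D2 *Smyd1* was at 8.66 ± 1.21 CPM per kb (SD, n = 3), with each library below every library of *Mef2d* (21.7 ± 4.77) and *Hdac7* (19.1 ± 3.68). *Hdac9* was last in both states. The order depended on the length used: with the median length of coding transcripts, *Mef2a* came before *Hdac5* in proliferating WT cells, and *Mef2a* and *Mef2c* led the order in WT cells at D2. In KO cells at D2 *Mef2a* and *Mef2d* led it.

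Within the MEF2 genes, on the scale of merged exons, *Mef2c* made up 1.06% ± 0.14 (SD, n = 3) of the summed level per kb in proliferating WT cells and 11.9% ± 0.24 at D2. In KO cells it made up 0.874% ± 0.055 (SD, n = 3) at Prol and 8.13% ± 1.21 at D2. The share of *Mef2d* was 81.4% ± 1.38 at Prol and 55.1% ± 1.77 at D2 in WT cells. Within the class IIa HDAC genes, *Hdac7* made up 73.9% ± 4.70 (SD, n = 3) at Prol and 59.7% ± 6.53 at D2 in WT cells, and *Hdac9* 0.0587% ± 0.0219 and 1.43% ± 0.21. The share of *Mef2a* was 17.5% ± 1.25 at Prol and 33.0% ± 1.64 at D2, and that of *Hdac5*, which was not called, 22.4% ± 4.97 and 33.6% ± 6.02. With the median length of coding transcripts instead, *Mef2c* made up 5.21% ± 0.58 at Prol and 36.0% ± 0.44 at D2 in WT cells and 4.40% ± 0.17 and 27.2% ± 3.92 in KO cells, *Mef2d* 61.5% ± 2.30 and 25.5% ± 1.22 in WT cells, and *Hdac7* 62.5% ± 4.70 and 46.1% ± 6.20. The direction of these shares was the same with both lengths, but their size was not. In bulk RNA, a change in the share of differentiated cells and a change in the RNA per cell cannot be told apart.

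KO and WT cells were compared in each state to ask whether loss of LAP2alpha changes the axis. Same-numbered KO and WT libraries deviated together in each state, with correlations of 0.276 to 0.645 at D2. At D2, 3 of 6 libraries correlated best with their own number. The SEs and intervals given are from the fit without a block, so they include this shared deviation. With the replicate number as a block, no member was called in any state. No member was called by limma at Prol, where 0.00566% of all genes were called, at D0, where 0% were called, or at D2, where 0% were called. *Mef2c* at D2 was the member with an unadjusted p under 0.05, which 1.96% of all genes reached. Its mean was 46.4 ± 5.03 CPM in KO and 84.4 ± 28.7 CPM in WT cells (SD, n = 3), a log2 fold change of -0.82 (SE 0.35, unadjusted p = 0.0327, limma). The adjusted p was 1 over all genes, and 0.106 to 1 under the alternatives. Without WT D2 replicate 1, the highest library, the log2 fold change was -0.552 (adjusted p = 0.821, limma). With an unadjusted p under 0.05, a change over 1.5-fold and at least 10 CPM in a library, *Mef2c* was the only member called, among 0.464% of all genes. The study's methods ask for a log2 fold change over 1.5 in place of 1.5-fold. By that rule no member was called in the fit used here, against 0.0736% of all genes. That fit had neither the voom weights nor the lane block of the methods. The paper reports more genes for this comparison than either rule called here. For D2 against Prol in WT cells, the 1.5-fold rule called 4167 genes and the log2 rule 1358. The paper's count there is nearer to that of the 1.5-fold rule. Which cut the authors applied was not tested.

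*Smyd1* at D2 was at 39.4 ± 5.50 CPM in KO and 81.6 ± 34.4 CPM in WT cells (SD, n = 3), and its KO and WT libraries did not overlap either. Its log2 fold change was -0.98 (95% interval -2.24 to 0.27, unadjusted p = 0.117, limma). It was -0.658 without WT D2 replicate 1 and -0.62 without all libraries of replicate 1. *Mef2c* and *Smyd1* were the 2 of 8 members whose KO and WT libraries did not overlap at D2, against 6.17% of all genes. The remaining members differed at D2 by log2 fold changes of -0.25 (*Mef2a*) to 0.18 (*Hdac4*), with 95% intervals that reached from -0.91 to 0.41 for *Mef2a*, -0.71 to 0.38 for *Mef2d*, -0.43 to 0.36 for *Hdac7*, -0.57 to 0.94 for *Hdac4*, -0.65 to 0.96 for *Hdac5* and -1.32 to 0.95 for *Hdac9*. These intervals were narrowest for *Hdac7* and wide for *Hdac9*, which had the fewest counts.

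At Prol the KO libraries of *Hdac9* were all above the WT libraries, at 0.530 ± 0.079 against 0.308 ± 0.110 CPM (SD, n = 3), with 6 to 20 expected counts in each library. It was the 1 of 8 members without overlap there, against 4.41% of all genes. Its log2 fold change was 0.85 (SE 0.53, unadjusted p = 0.132, limma). It was 0.51 without WT Prol replicate 1, the lowest library, 0.40 without all libraries of replicate 1 and 0.229 with 1 CPM added. The other members differed at Prol by -0.45 (*Smyd1*) to 0.13 (*Mef2d*) on the log2 scale, and at D0 all 8 members lay between -0.79 (*Smyd1*) and 0.56 (*Hdac9*). Whether the KO-to-WT difference at D2 departed from that at Prol was tested as a contrast of the same fit, which was called for no member and for 0% of all genes. The estimates were -1.03 for *Hdac9* (SE 0.75, unadjusted p = 0.19, limma), -0.65 for *Mef2c* (SE 0.49, unadjusted p = 0.205, limma) and -0.53 for *Smyd1* (SE 0.84, unadjusted p = 0.536, limma). Without all libraries of replicate 1 they were -0.61, -0.51 and -0.74, so their order changed. For *Hdac9* the estimate was -0.695 without WT Prol replicate 1, -0.684 without WT D2 replicate 1 and -0.384 with 1 CPM added. For *Mef2c* it was -0.388 without WT D2 replicate 1. No member reached an unadjusted p under 0.05 in this contrast.

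**Figure D3:**
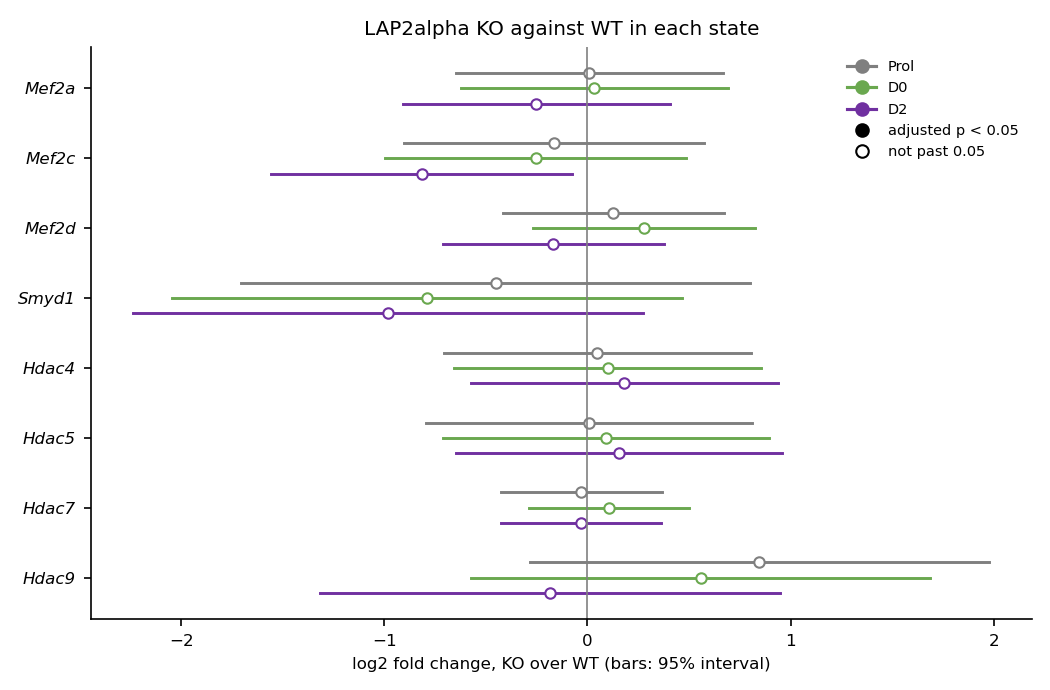
Log2 fold change of KO over WT for each gene at Prol (grey), D0 (green) and D2 (purple), with bars for the 95% interval and open points because no adjusted p was under 0.05 (limma). The D2 interval of *Mef2c* lies below 0, from -1.56 to -0.08, and all other intervals include 0.

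The genes around the axis were taken from lists chosen by function, also with earlier results of these data known. Their counts are to be read against the 16.6% of all genes called higher and 14.1% called lower in WT cells and the 17.1% and 15.2% in KO cells. Of 22 genes described as MEF2 targets in muscle, 15 rose from Prol to D2 in WT cells, 1 fell and 6 did not pass, with a median log2 fold change of 4.30 against -0.01 for all genes. In KO cells 14 rose, 1 fell and 7 did not pass, with a median of 4.21. *Des*, the desmin gene, is in this list and among the myoblast markers. Those with the smallest adjusted p in WT cells were *Tnnc1*, the slow troponin C gene, with a log2 fold change of 7.48, *Myom2*, an M-band protein gene, with 7.31, *Ckm*, muscle creatine kinase, with 7.22, and *Myog*, myogenin, with 9.09. In KO cells the log2 fold changes of these were 6.46, 6.03, 5.69 and 7.88. *Ckm* had at most 4.53 expected counts in any Prol library, so its fold rests on few counts. The gene that fell was that of the glycolytic enzyme aldolase A, *Aldoa*, with -0.77 in WT and -0.97 in KO cells. At D2, KO against WT, none of the 22 was called by limma, 3 had an unadjusted p under 0.05, the median was -0.85 and 5 were positive. *Tnnc1* was at -1.05 (unadjusted p = 0.016, limma) and *Ckm* at -1.11 (unadjusted p = 0.0337, limma) there.

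Among the 15 kinases that act on class IIa HDACs, *Camk2a* and *Camk2b*, subunits of CaM kinase II, and *Sik1*, a salt-inducible kinase that is itself known as a partner of MEF2 in muscle, rose in both genotypes. The log2 fold changes in WT cells were 6.41, 2.44 and 1.51, and in KO cells 5.54, 4.01 and 1.04. The larger KO value of *Camk2b* is to be read with its lower level in KO than in WT cells at Prol. The log2 fold change of KO over WT was -2.14 there (SE 0.69, unadjusted p = 0.00728, limma), which was not called. At D2 it was -0.56. None of the 15 kinases fell in WT cells, and *Camk1g* fell in KO cells, with -2.03 (adjusted p = 0.0476, limma). The other kinases did not pass, the share that rose was near that of all genes, and the list's median was -0.01 in WT and 0.13 in KO cells. Of 7 genes for 14-3-3 proteins, which bind phosphorylated class IIa HDACs, 3 fell in each genotype. They were *Ywhah*, with -1.23 in both, *Ywhae*, with -0.95 in WT and -1.12 in KO cells, and *Ywhaq*, with -0.81 in both.

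Of 14 genes of calcineurin, p38 and ERK5 signalling to MEF2, 2 fell in WT cells, *Mapk14*, encoding p38 alpha, with -0.65 and its activating kinase *Map2k3* with -0.81. In KO cells 3 fell, these with -0.64 and -1.07 and *Mapk11*, encoding p38 beta, with -0.91, and none rose in either genotype. The share that fell in WT cells was near that of all genes. Of 16 corepressor and coactivator genes, the acetyltransferase gene *Kat2b* rose, with 0.69 in WT and 0.93 in KO cells. *Ctbp2*, a corepressor that MITR binds, fell with -1.03 and -1.10, and *Carm1*, an arginine methyltransferase that acts with MEF2, fell with -0.91 and -0.94. *Gps2*, of the NCoR complex, fell in WT cells with -0.54, and the remaining 12 did not pass in WT.

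Of 8 genes of the SMYD family and SMYD1 partners, *Unc45b*, the myosin chaperone of striated muscle, rose with 8.53 in WT and 7.74 in KO cells. *Smyd5* fell with -0.91 and -1.12, *Smyd2* with -0.69 and -0.60, and the chaperone gene *Hsp90aa1* with -1.65 and -1.66. Of 7 other HDAC genes, *Hdac11*, the class IV deacetylase, rose with 1.77 in WT and 1.59 in KO cells, *Hdac1* fell with -0.42 and -0.50, and 5 did not pass. At D2, KO against WT, no gene of these 6 lists was called by limma, 2 of the 15 kinases (*Camk2a* and *Camk1g*) and none of the others had an unadjusted p under 0.05, and the medians lay between -0.06 and 0.06.

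Some cell type and proliferation markers also changed during differentiation, in both directions. From Prol to D2 in WT cells, 5 of 7 myoblast markers rose and none fell, and all 10 proliferation markers fell. Their summed level was 132 to 245 CPM at Prol and 806 to 1328 CPM at D2 for myoblast markers, and 2420 to 2863 CPM and 364 to 617 CPM for proliferation markers. Of 9 fibroblast markers, 5 rose and 1 fell, with summed levels of 2673 to 4576 CPM at Prol and 4031 to 18822 CPM at D2. Among them, *Dcn* was at 0.0844 to 0.415 CPM at Prol and 30.1 to 63.8 CPM at D2. Of 5 endothelial markers 1 rose, with summed levels of at most 4.26 CPM in any library, and of 5 smooth muscle and cardiac markers 1 rose and 1 fell. Of 3 immune markers 1 fell, and their sum was at most 11.7 CPM. These counts leave out markers that were not among the genes listed. Present were 7 of 8 myoblast, 9 of 10 fibroblast and 5 of 8 endothelial markers. Of the smooth muscle and cardiac markers 5 of 9 were present, and of the immune markers 3 of 8. In KO against WT cells at D2, no marker was called by limma or had an unadjusted p under 0.05. The median log2 fold change was -0.66 over myoblast markers, with 1 of 7 positive, 0.42 over fibroblast markers, with 8 of 9 positive, and -0.26 over proliferation markers, with 1 of 10 positive. Summed myoblast markers at D2 were at 637 to 658 CPM in KO libraries, below the WT libraries. The part of these markers in the values of *Mef2c* and *Smyd1* was not tested.

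**Figure D4:**
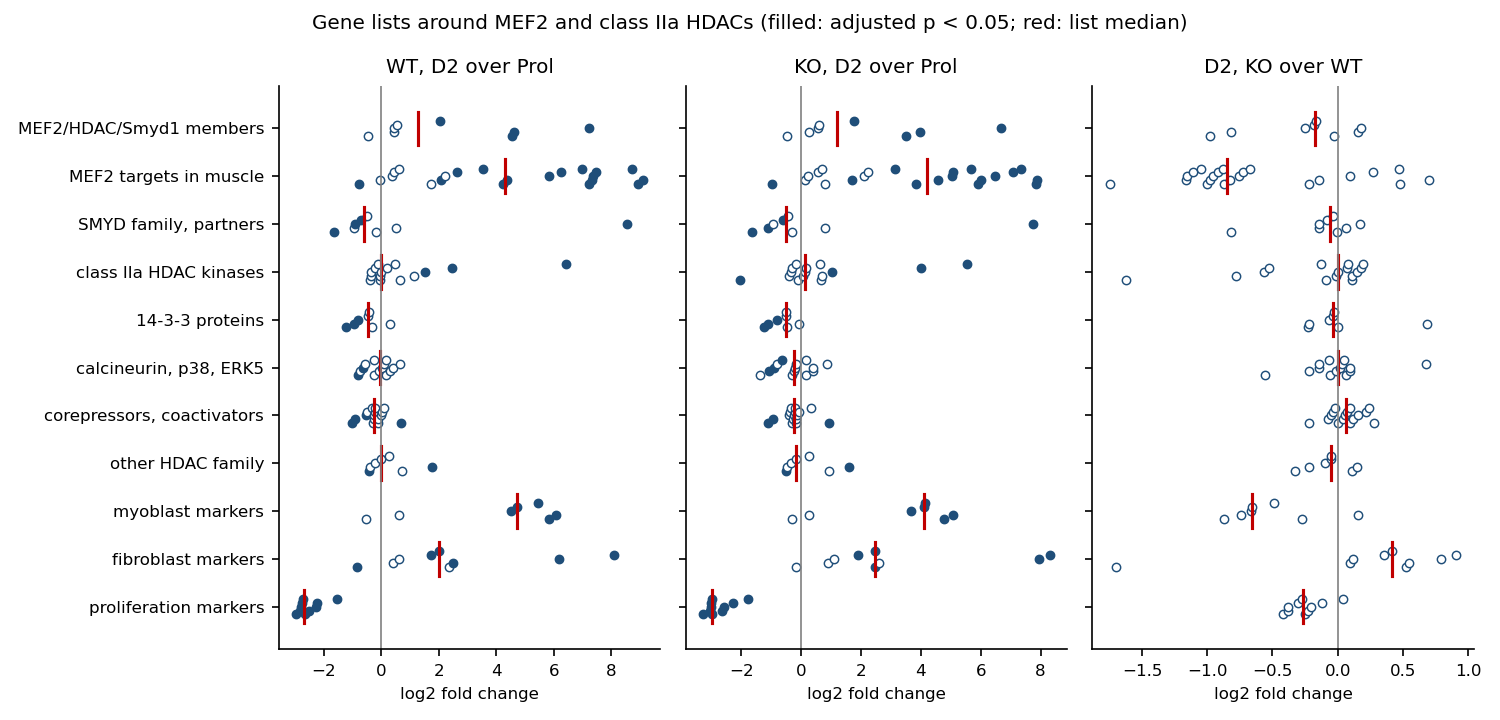
Log2 fold change of each gene in 11 lists for D2 over Prol in WT and KO cells and for KO over WT at D2, with filled points for an adjusted p under 0.05 (limma) and a red line at each list's median. MEF2 targets and myoblast markers lie mostly to the right in the first 2 panels, with medians of 4.30 and 4.72 in WT cells, and have medians of -0.85 and -0.66 in the last.

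The genes whose levels followed each member most closely were found by Pearson correlation of log2 CPM over the 18 libraries, among 9488 genes with a mean of at least 10 CPM. These values describe 18 libraries that share 6 groups and the replicate effect. *Smyd1* was followed most closely by *Synpo2l* (0.991), *Ryr1* (0.990) and *Myog* (0.990), of which *Ryr1* encodes the calcium release channel of the sarcoplasmic reticulum. *Mef2c* was followed by *Jph2* (0.993), a junctional membrane protein gene, by the cell cycle inhibitor gene *Cdkn1a* (0.989) and by *Ccdc141* (0.988). *Mef2a* was followed by *Cd164* (0.987), *Rnf185* (0.985) and *Slc24a3* (0.984), and *Hdac9* by *Trp53inp2* (0.975), *Mest* (0.975) and *Lifr* (0.974).

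*Hdac4* was followed by the collagen gene *Col5a2* (0.982), *Foxn3* (0.978) and the fibrillin gene *Fbn1* (0.976). *Hdac5* was followed by *Ctdsp2* (0.960), *Foxc1* (0.947) and the collagen gene *Col11a1* (0.944). *Mef2d* was followed by *Inppl1* (0.961), *Hif1an* (0.960) and *Midn* (0.955), and *Hdac7* by *Ccar1* (0.968), *Sf1* (0.968) and *Rfxap* (0.965). *Hdac4* and *Hdac5*, with collagen genes among their closest, were highest in replicate 1 in every group.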

How the data were processed

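Libraries were strand-specific, polyA-selected and single-end. Following the study's methods, the authors used cutadapt for trimming, NextGenMap for alignment to transcripts of GRCm38, and RSEM with tximport for gene-level expected counts. They dropped low genes and scaled libraries with TMM factors. The deposited CPM values equal the expected count plus 0.5 over the scaled library total, as checked on the values. Between 40.4% and 54.1% of the recovered values under 20 counts were whole within 0.01, so no count test was run. Totals and expected counts were recovered from these values.

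A gene was tested if every library of some group held over 5 expected counts of it, which 17672 genes did. The test was limma 3.58.1 in R 4.3.3 (lmFit, eBayes with a variance trend) on log2 CPM in one fit of the 18 libraries and 6 groups, with Benjamini-Hochberg adjustment over those genes. It was checked on simulated data with independent noise in each library, which does not cover the deviation that same-numbered libraries share. The members and lists were chosen with earlier results of these data known. Named genes are the members, up to 4 called genes per list by smallest adjusted p, and for each member the 3 genes with the highest correlation.

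Same-numbered libraries deviated together from their group means, with a correlation over 0.1 for all 3 numbers in each comparison except D2 against Prol (0.0393 for number 3) and D2 against D0 (0.01) in WT cells. The labels give no sequencing lane, which the methods use as a block. Some members overlap genes on the same strand (*Gm44667* and *Gm44668* in *Mef2a*, *Gm37036* in *Hdac4*, *Mir8101* in *Hdac5*, *Gm18025*, *Gm47357* and *4921508M14Rik* in *Hdac9*). The alternatives changed the weights (voom, also with a random replicate block and no filter), the scaling (median of ratios, or none beyond the totals), the filter, the block, the pseudocount (1 CPM), the groups fitted, the criteria (an unadjusted p under 0.05, 1.5-fold and 10 CPM) and the libraries (each left out). Leaving out all libraries of replicate 1, and the cut stated in the study's methods, a log2 fold change over 1.5, were added after seeing the data.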

Additional observations from a re-analysis of the deposited data

Results flagged for a closer look

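*Mef2a* was lower in KO than in WT in all 3 same-numbered pairs at D2, with a log2 fold change of -0.25, and higher in all 3 pairs at D0, with 0.03. The opposite directions drew attention, but the difference between them was not tested, and neither value was called.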

How the results depend on the processing

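The rise of *Mef2a*, *Mef2c*, *Hdac9* and *Smyd1* from Prol to D2 and from D0 to D2 in both genotypes was called under the 15 alternatives that refit the test for each of these comparisons, leave-outs included, with an adjusted p of at most 0.00712 (limma). By the criteria stated in the study's methods, and with 1.5-fold in place of their log2 fold change of 1.5, *Hdac9* was not called in KO for want of 10 CPM. This left 3 members there for D2 against Prol and against D0. By the stated criteria 8.18% and 7.14% of all genes were called in these 2 comparisons, in either direction. With 1.5-fold the shares were 24.9% and 22.6%. With the replicate block, 7 members were called for D2 against Prol in WT (4 without it), 7 in KO, and 7 for D2 against D0 in KO. In KO the block raised the share of all genes called from 32.3% to 48.6% and from 28.3% to 46.0%. The added calls are therefore not read as particular to the members. In WT, number 3 was not paired, 3 of 6 libraries correlated best with their own number for D2 against Prol, and the block added *Mef2d*, *Hdac4* and *Hdac7*. For D2 against D0 in WT it gave 7 members against 5. The share of all genes called with the block in WT is not reported here. The block changed no call between KO and WT or between D0 and Prol. Voom with the random block gave 7 for D2 against Prol in KO. The share of all genes called in that setting is not reported here, so these 7 are not read as particular to the members. An unadjusted p under 0.05 with 1.5-fold and 10 CPM called 1 member, *Mef2c*, for KO against WT at D2, and the criteria stated in the methods none. Library totals alone moved the median of all genes from Prol to D2 to 0.15 in WT and 0.16 in KO, called *Mef2d* in WT (0.713), and turned *Hdac7* for D2 against D0 in WT to 0.00857. *Mef2d* for D2 against D0 in WT was not called with only the groups compared (adjusted p = 0.13, limma). The D2 against Prol difference of KO over WT for *Hdac7* turned to 0.00192 with voom weights and 0.000411 with the random block. The cause of these changes was not tested.

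No reversal from leaving out libraries concerned a called value. The log2 ranges of the results that reversed were as follows. For D0 against Prol in WT they were -0.25 to 0.138 (*Mef2a*), -0.508 to 0.256 (*Mef2c*), -0.435 to 0.237 (*Hdac4*), -0.428 to 0.857 (*Hdac9*) and -0.0668 to 1.21 (*Smyd1*). In KO they were -0.212 to 0.172 (*Mef2a*), -0.245 to 0.224 (*Hdac4*), -0.42 to 0.0846 (*Hdac5*), -0.375 to 0.374 (*Hdac9*) and -0.273 to 0.714 (*Smyd1*). For KO against WT at Prol they were -0.144 to 0.117 (*Mef2a*), -0.0237 to 0.216 (*Mef2d*), -0.15 to 0.191 (*Hdac4*), -0.199 to 0.163 (*Hdac5*), -0.0785 to 0.0138 (*Hdac7*) and -0.761 to 0.128 (*Smyd1*). At D0 they were -0.179 to 0.256 (*Mef2a*), -0.589 to 0.174 (*Mef2c*), -0.227 to 0.445 (*Hdac4*), -0.188 to 0.469 (*Hdac5*) and -0.0348 to 0.207 (*Hdac7*). At D2 they were -0.562 to 0.0445 (*Mef2a*), -0.349 to 0.0866 (*Mef2d*), -0.088 to 0.463 (*Hdac4*), -0.104 to 0.532 (*Hdac5*), -0.182 to 0.115 (*Hdac7*) and -0.556 to 0.163 (*Hdac9*). For the D2 against Prol difference of KO over WT they were -0.57 to 0.0365 (*Mef2a*), -0.137 to 0.414 (*Hdac4*), -0.112 to 0.523 (*Hdac5*) and -0.152 to 0.145 (*Hdac7*).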
